A study of Mus musculus with 5 samples.

Results

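Six-family and Eya genes encode a transcription factor pair that acts early in the making of muscle. Six-family proteins are homeodomain factors that bind DNA sites called MEF3, and Eya proteins, which do not bind DNA themselves, join them as coactivators and also carry a tyrosine phosphatase domain. In the mouse embryo the pair acts upstream of the myogenic regulatory genes, and in adult muscle Six-family proteins take part in fast fiber gene expression and in satellite cell function. The genes described here are the Six-family members Six2, Six4 and Six5 and the coactivator genes Eya1, Eya2, Eya3 and Eya4, chosen by symbol, 7 of the 22683 genes in the deposited table, whatever their values.

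RNA was sequenced from satellite cells, the stem cells of skeletal muscle, which had been sorted by flow cytometry and are labelled as quiescent. The first group was 3 libraries from mdx mice, a model of Duchenne muscular dystrophy whose dystrophin gene is mutated, and the second was 2 libraries from wild-type mice. Library input was 10000 to 20000 cells, and the kit kept the strand of total RNA. The labels do not state strain, age, sex, muscle of origin or whether animals were pooled. P-values therefore reflect the spread among these 5 libraries only, and part of that spread could be technical.

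The deposited values are normalized counts, that is, reads per gene divided by 1 factor per library and rounded. They summed to between 12473348 and 15930638 in the mdx libraries and to 15217054 and 16825045 in the wild-type libraries, which corresponds to about 12.8 M to 14.8 M reads in mdx and 17.1 M and 19.6 M in wild type. Dmd, the gene of the mdx mutation, had 4642, 4116 and 3700 normalized counts in mdx and 11826 and 9266 in wild type. The female transcript Xist had 0, 0 and 12 in mdx against 30235 and 30176 in wild type, and the Y-linked Ddx3y had 966, 946 and 827 against 9 and 0, so genotype and sex cannot be told apart. Satellite cell markers were present in all 5 libraries, and their summed normalized counts were 56699 to 83268 in mdx and 112495 to 125502 in wild type. Most of the difference between these sums came from Sdc4 and Chodl. Sdc4 had 3261, 2633 and 2916 in mdx and 30886 and 27833 in wild type. Chodl had 5854, 4554 and 7456 in mdx and 27683 and 29240 in wild type. Of 12 such markers tested, 3 were higher and 7 lower in mdx by the test described next.

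Expression in mdx and wild type was compared on log2(normalized count + 2) with limma, adjusting p-values over the 18199 genes that reached 10 in 2 or more libraries, with a threshold of 0.05. All 7 Six-family and Eya genes passed this filter, Six2 and Eya2 only through their mdx libraries. Six4 rose in mdx, 2.76-fold, and the other 6 genes did not pass, so 1 of 7 was called higher and 0 of 7 lower. Among all tested genes 14.6% were called higher (2659 genes) and 10.3% lower (1868 genes). With the length and GC trend removed these counts were 1769 higher and 1978 lower, and with libraries scaled to equal Pax7 they were 1523 higher and 2962 lower. All 3 mdx libraries lay above both wild-type libraries for Six2, Six4, Six5 and Eya3, 4 of the 7 genes, whereas 28.2% of all tested genes did so. The median log2 fold change was 1.47 over the 7 genes, which is the value of Six4 itself, and 0.13 over all tested genes. Above it lay Six5 at 1.87, Six2 at 3.06 and Eya2 at 1.92. Since Six2 and Eya2 passed the filter only through mdx, this median does not measure a rise of the 7 genes as a set. The plot of the 7 genes by library shows these values.

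**Figure D1:**
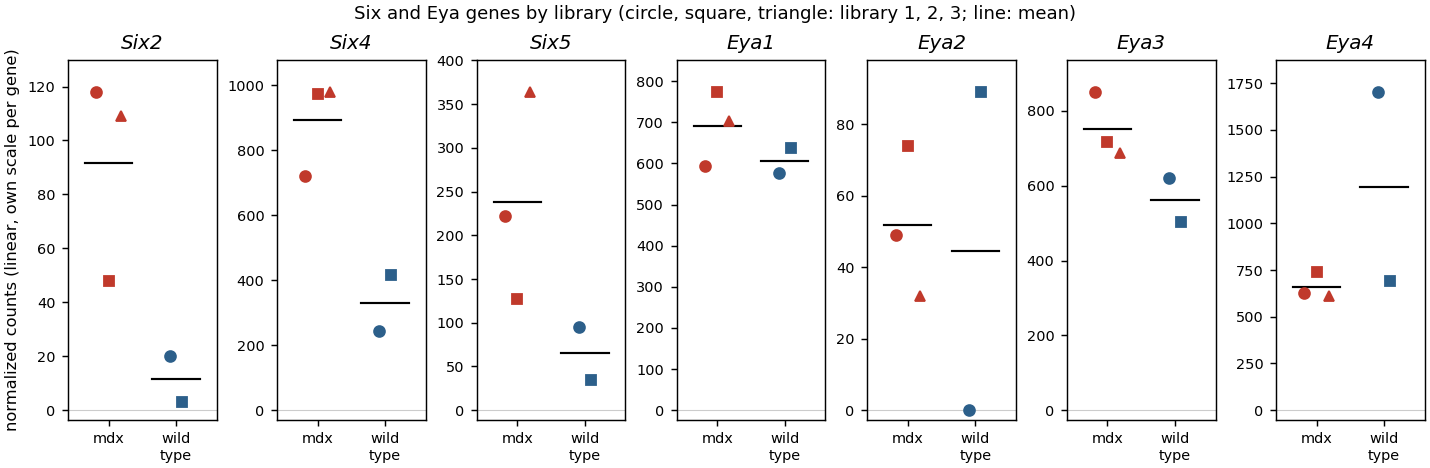
Normalized counts of the 7 genes in the 3 mdx libraries (red) and the 2 wild-type libraries (blue), each gene on its own linear scale from 0, with a line at the group mean. The mdx libraries lie above the wild-type libraries for Six2, Six4, Six5 and Eya3. Eya4 and Eya2 are spread widely in wild type, at 1703 and 689 for Eya4 and at 0 and 89 for Eya2.

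Six4, which acts in myogenesis with other Six-family proteins, lies on chromosome 12, 73099609 to 73113456 (mm10, minus strand). It had 722, 974 and 980 normalized counts in mdx 1, 2 and 3, against 244 and 416 in wild type 1 and 2. The lowest mdx library stood well above the highest wild-type library. The means were 892 ± 147 in mdx and 330 ± 122 in wild type (SD, n = 3 and n = 2). Six4 thus had a log2 fold change of 1.47 (SE 0.33, 95% interval 0.72 to 2.21, limma adjusted p = 0.0119). Leaving out mdx 2 ended the call (log2 fold change 1.39, limma adjusted p = 0.0686) as did leaving out mdx 3 (1.39, limma adjusted p = 0.0733). It also ended when trends with transcript length and GC content were removed library by library (1.03, limma adjusted p = 0.0657), and with a variance model without trend and robust estimation (limma adjusted p = 0.076).

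A MEF3 site, the sequence TCAGGTTTC that Six-family proteins bind, was searched on both strands in windows of 250 bases before to 50 bases after each RefSeq start (GRCm38.p6). Windows were matched for 5 of the 7 genes, Six2, Six4, Six5, Eya3 and Eya4, and Six4 was the 1 gene among them with a match. Of all 32851 windows, 141 held a match, or 0.429%. The window of Myog, the gene of the differentiation factor myogenin and a known target of Six-family proteins in the mouse, held one as well. The 30 bases around each match are shown because Six4 carries, next to one of its own starts, the same letters as a known Six-family target. Both are on the gene's strand, 5′ to 3′, with the match in capitals.
Six4: tggcctggggGAAACCTGAtcggccagatc
Myog: agaggggggcTCAGGTTTCtgtggcgttgg
The stretch from Six4 is chr12:73113325-73113354, minus strand, and the match reads on the opposite strand of the gene. The first base of the match lies 99 bases before a RefSeq start at 73113245. RefSeq also gave Six4 a second window further out, 73113376 to 73113675, and that window held no match. GENCODE release M21 likewise places the starts of Six4 further out than 73113245, the nearer one by 180 bases. In that annotation the match lies in a non-coding part of an exon. The stretch from Myog is chr1:134289910-134289939, plus strand, with the match 84 bases before the RefSeq start. A match of letters is a description of the window and does not show binding.

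Six5 encodes a Six-family protein whose gene lies beside Dmpk, where a repeat expansion causes myotonic dystrophy in humans. Its position is chromosome 7, 19094594 to 19098549 (mm10, plus strand). Six5 had 222, 127 and 364 normalized counts in mdx, against 95 and 35 in wild type. The libraries did not overlap, but mdx 2 stood closer to wild type 1 than to mdx 3. The log2 fold change of 1.87 (95% interval 0.32 to 3.42) did not pass (limma adjusted p = 0.0766). Without wild type 1 the value was 2.57 and passed (limma adjusted p = 0.00382), in a fit where the 1 wild-type library left is assumed to vary as the mdx libraries do. Without wild type 2 it was 1.18 (limma adjusted p = 0.215), and with the length and GC trend removed it was 0.91 (limma adjusted p = 0.349). The neighbour Dmpk, which encodes a kinase of muscle, ends 772 bases before Six5 on the same strand. Dmpk rose 2.24-fold, with 1669, 2824 and 2268 normalized counts in mdx and 926 and 1046 in wild type (limma adjusted p = 0.0107). Dmpk no longer passed when mdx 2 was left out (limma adjusted p = 0.0553) or when mdx 3 was (limma adjusted p = 0.0699). It also failed to pass with the length and GC trend removed, where the log2 fold change of Dmpk was 0.27 in place of 1.16 (limma adjusted p = 0.519). Nor did Dmpk pass with equal Pax7 (limma adjusted p = 0.269), without trend and robust estimation (0.108) or with replicate numbers as a block (0.0532). Rsph6a, further upstream at the locus and known from sperm flagella, had 51, 55 and 0 in mdx and 0 and 3 in wild type, with limma adjusted p = 0.318.

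Six2, best known for keeping kidney progenitors undifferentiated and also expressed in the connective tissue and tendons of the mouse limb, lies on chromosome 17, 85684277 to 85688274 (mm10, minus strand). Six2 had 118, 48 and 109 normalized counts in mdx, against 20 and 3 in wild type. These values stand for about 95, 51 and 116 reads in mdx and 22 and 3 reads in wild type. The groups did not overlap, and the low wild-type values make the fold imprecise. Six2 had a log2 fold change of 3.06, with a 95% interval of 0.65 to 5.46, which did not pass (limma adjusted p = 0.0651). Without wild type 1 it was 4.13 and passed (limma adjusted p = 0.00543), and without wild type 2 it was 1.99 (limma adjusted p = 0.176). With the length and GC trend removed the log2 fold change of Six2 was 2.20 (limma adjusted p = 0.17).

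Markers of tendon cells and of fibro-adipogenic progenitors, a mesenchymal cell type of muscle, were measured beside Six2. Of 8 tenocyte markers 6 rose in mdx. Their summed normalized counts were 30345 to 55545 in mdx and 23253 to 26846 in wild type, most of it from Egr1, an early response gene with 37259, 22843 and 29750 in mdx and 26773 and 23098 in wild type. The tendon markers Tnmd, Thbs4 and Kera were at 0 in both wild-type libraries, while Scx, the transcription factor of tendon progenitors, had 116, 122 and 175 in mdx and 23 and 27 in wild type. Of 11 markers of fibro-adipogenic progenitors, 9 rose and 1 fell, with sums of 97367 to 171422 in mdx and 32162 to 44673 in wild type. Other cell types moved the same way. All 10 endothelial markers rose, with sums of 21222 to 28942 in mdx and 159 to 344 in wild type, and Ptprb, Cldn5 and Emcn at 0 in wild type. Of 10 macrophage markers 8 rose, with sums of 9978 to 15006 in mdx and 428 to 647 in wild type, and C1qa, C1qb, C1qc and Mrc1 at 0 in wild type. Of 13 myofiber markers 4 rose, with sums of 30957 to 72544 in mdx and 4196 to 5520 in wild type. Ttn, encoding the giant sarcomere protein titin, made up most of the mdx sums, with 37164, 64744 and 23685 in mdx and 2475 and 2100 in wild type, while Mylpf had 173, 38 and 162 in mdx and 162 and 74 in wild type. Of 8 markers of pericytes and smooth muscle 4 rose, with sums of 9138 to 10606 in mdx and 3135 to 3657 in wild type. Of 6 Schwann cell markers 5 rose, with sums of 5211 to 5779 in mdx and 3918 to 4324 in wild type, and S100b and Cdh19 at 0 in wild type. Most of the Schwann sums came from Ncam1, which did not pass, with 4528, 4828 and 4998 in mdx and 4273 and 3811 in wild type. The part of these cells in the values of Six2, Six4, Six5 and the Eya genes was not tested, and in bulk RNA a change in the number of cells cannot be told apart from a change in RNA per cell.

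The Eya genes did not pass in either direction. Eya3, the member known for its phosphatase role in the response to DNA damage, lies on chromosome 4, 132639046 to 132724765 (mm10, plus strand). It had 851, 718 and 687 normalized counts in mdx, against 621 and 504 in wild type. The groups did not overlap, although mdx 3 and wild type 1 were close. The log2 fold change was 0.42 (95% interval −0.18 to 1.02, limma adjusted p = 0.277). Its sign turned with the length and GC trend removed, where it was −0.16.

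Eya1, which is mutated in branchio-oto-renal syndrome in humans and takes part with Six-family proteins in the fast fiber program of the mouse, lies on chromosome 1, 14168954 to 14310235 (mm10, minus strand). Eya1 had 593, 774 and 703 normalized counts in mdx, against 576 and 637 in wild type. The groups overlapped, and the whole range of the 5 libraries was narrow. For Eya1 the log2 fold change was 0.18, and its 95% interval of −0.42 to 0.80 holds changes in either direction (limma adjusted p = 0.66).

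Eya4, which is mutated in human hereditary deafness and dilated cardiomyopathy, lies on chromosome 10, 23102963 to 23350786 (mm10, minus strand). It had 628, 740 and 611 normalized counts in mdx, against 1703 and 689 in wild type. Wild type 1 stood far above the other 4 libraries, and wild type 2 lay within the mdx range. Eya4 had a log2 fold change of −0.72 (95% interval −1.55 to 0.12, limma adjusted p = 0.187). It depended on 1 library. Without wild type 1 the value was −0.07 (limma adjusted p = 0.906), and without wild type 2 it was −1.37 and passed (limma adjusted p = 0.000923).

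Eya2, which joins Six-family proteins in the nucleus of embryonic muscle precursors, lies on chromosome 2, 165595032 to 165771727 (mm10, plus strand). It was the scarcest Eya gene, with 49, 74 and 32 normalized counts in mdx against 0 and 89 in wild type. Wild type held both the lowest and the highest value. The log2 fold change of 1.92 had a 95% interval of −1.61 to 5.44 (limma adjusted p = 0.394). It was −0.84 without wild type 1 and 4.67 without wild type 2 (limma adjusted p = 0.0349). The 0 in wild type 1 stood against about 103 reads in wild type 2.

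Levels can be compared between genes only per length, here as normalized counts per kilobase of exon. In mdx the order was Eya3 at 133 ± 15.4, Eya1 at 88.4 ± 11.7, Six4 at 82.2 ± 13.6, Six5 at 79.0 ± 39.7, Eya4 at 70.0 ± 7.44, Six2 at 43.3 ± 18.0 and Eya2 at 17.4 ± 7.13 normalized counts per kilobase (mean ± SD, n = 3). Eya3 lay above Eya1 in all 3 mdx libraries, and Eya1 lay above Eya4 in all 3, while the levels of Six4 and Six5 overlapped those of both Eya1 and Eya4. The order of Eya3 and Eya1 depended on the length used. Per kilobase of the longest transcript, Eya1 lay above Eya3 in mdx 2, mdx 3 and both wild-type libraries, and below it in mdx 1. In wild type the order of levels was Eya4 at 127 ± 76.1, Eya3 at 99.6 ± 14.7, Eya1 at 77.7 ± 5.52, Six4 at 30.4 ± 11.2, Six5 at 21.6 ± 14.1, Eya2 at 15.0 ± 21.2 and Six2 at 5.43 ± 5.67 normalized counts per kilobase (mean ± SD, n = 2). Eya4 was highest through wild type 1 and stood below Eya1 and Eya3 in wild type 2, and the levels of Six4, Six5 and Eya2 overlapped. By the longest transcript, Eya4 stood above Eya3 in wild type 2 as well. The order of Six4 and Six5 likewise depended on the length used. Per kilobase of exon, Six4 lay below Six5 in mdx 1, mdx 3 and wild type 1. Per kilobase of the longest transcript, Six4 lay above Six5 in all 5 libraries.

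Summed per kilobase, Six2, Six4 and Six5 reached 196, 155 and 263 in mdx, against 63.5 and 51.4 in wild type. The Eya genes summed to 310, 330 and 287 in mdx, against 365 and 274 in wild type. The Six-family sums did not overlap between the genotypes and the Eya sums did, but whether the families differ in their change was not tested. Within the Eya sum, Eya3 made up 43.2 ± 5.09% in mdx and 31.4 ± 1.70% in wild type, and Eya4 22.6 ± 1.15% in mdx and 38.1 ± 16.2% in wild type. By the longest transcript the shares of Eya3 were lower, 37.4%, 28.5% and 31.4% in mdx and 20.9% and 23.8% in wild type. In the sum of Six2, Six4 and Six5, the share of Six4 was 42.1 ± 13.8% in mdx and 55.0 ± 27.7% in wild type. By the longest transcript it was 45.0%, 68.8% and 45.5% in mdx and 46.6% and 82.4% in wild type. By either length the share of Six4 overlapped between genotypes, so its rise came without a clear rise of its share. These shares are descriptions over 3 and 2 libraries.

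**Figure D2:**
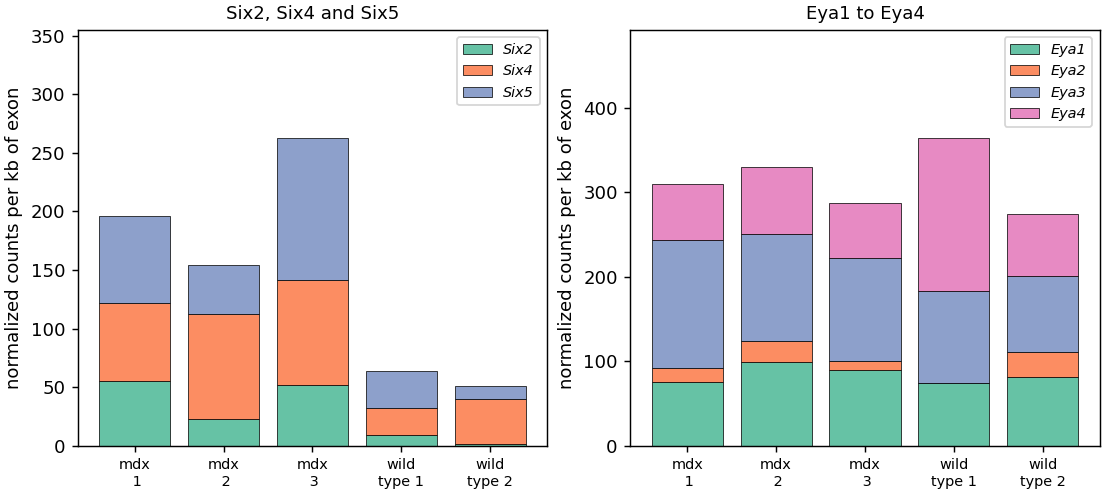
Stacked levels of Six2, Six4 and Six5 (left) and of Eya1 to Eya4 (right) in each library, in normalized counts per kilobase of exon. The Six-family stacks reach 155 to 263 in mdx and 51.4 and 63.5 in wild type, while the Eya stacks of mdx, 287 to 330, lie between those of the wild-type libraries, 274 and 365.

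Pax7, a transcription factor gene used as the defining satellite cell marker, was taken as 1 possible scale. Pax7 had 12767, 9751 and 14989 normalized counts in mdx against 9103 and 7644 in wild type (limma adjusted p = 0.0698). Whether it tracks the satellite cell content of these libraries was not tested. Of the 12 satellite cell markers, 7 were lower in mdx, and a scale set by those would move values the other way. For every 100 normalized counts of Pax7 there were 5.66, 9.99 and 6.54 of Six4 in mdx, against 2.68 and 5.44 in wild type. The ratio of Six4 to Pax7 did not overlap between genotypes, although mdx 1 and wild type 2 were close. With the libraries scaled to equal Pax7, a setting chosen after seeing the data, the log2 fold change of Six4 was 0.91 and did not pass (limma adjusted p = 0.142). By construction this scaling lowers every gene by about the 0.56 of Pax7. Eya4, at −0.72 before it, was at −1.28 on that scale (limma adjusted p = 0.038), a call that comes with the shift of all genes. For every 100 of Pax7 there were 4.92, 7.59 and 4.08 normalized counts of Eya4 in mdx, against 18.7 and 9.01 in wild type.

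Of 7 network partners of Six-family and Eya proteins listed, 5 could be tested, and 0 were called by limma in either direction. Under some other settings 1 or 2 were called higher, which were Sobp, Pax7 or both. Sobp and Pax7 both passed with no filter and with equal library totals. Sobp, named for binding Six-family proteins, had 319, 283 and 260 normalized counts in mdx against 32 and 150 in wild type. Its log2 fold change was 2.00 (limma adjusted p = 0.0554). The value for Sobp was 3.08 without wild type 2 (limma adjusted p = 0.000115), 0.92 without wild type 1 (limma adjusted p = 0.247) and 1.14 with the length and GC trend removed (limma adjusted p = 0.251). Pax7, described above, had a log2 fold change of 0.56, which was 1.34 with quantile normalization (limma adjusted p = 0.00111), 0.69 without wild type 1 (limma adjusted p = 0.01) and −0.35 with the length and GC trend removed (limma adjusted p = 0.202). Dach1, a corepressor that joins Six-family and Eya proteins, had 553, 477 and 307 in mdx against 297 and 252 in wild type (limma adjusted p = 0.235). Pax3, the embryonic relative of Pax7, had 20, 170 and 136 in mdx against 217 and 236 in wild type (limma adjusted p = 0.247). Before adjustment, 2 of the 5, Sobp and Pax7, had a limma p under 0.05. Among all 18199 tested genes 6933 did so, a similar share.

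Cofactors reported for Six-family, Eya or Dach proteins were called higher in 6 of 10 cases and lower in 0, with a median log2 fold change of 1.71, beside 14.6% higher and 10.3% lower among all tested genes. They were 5 higher and 1 lower with the length and GC trend removed, 4 higher and 1 lower with equal Pax7, 4 higher without trend and robust estimation, and 4 to 7 higher with 1 library left out. Crebbp and Ep300 encode the paired histone acetyltransferases CBP and p300. Crebbp had 6936, 6163 and 6494 normalized counts in mdx against 2271 and 1977 in wild type, a 3.08-fold rise (limma adjusted p = 0.000238). Ep300 had 3543, 3328 and 3086 in mdx against 1930 and 2028 in wild type, a 1.67-fold rise (limma adjusted p = 0.0149) whose log2 fold change turned to −0.18 with the length and GC trend removed. The call of Ep300 also ended without mdx 1 (limma adjusted p = 0.0582) and without mdx 2 (limma adjusted p = 0.0547). Nor did Ep300 pass with replicate numbers as a block (limma adjusted p = 0.0782), without trend and robust estimation (0.162) or with equal Pax7 (0.7175). Ski, a corepressor found in Dach complexes, rose 3.24-fold (limma adjusted p = 0.000364). With the length and GC trend removed the log2 fold changes still passed but were smaller, 0.64 in place of 1.62 for Crebbp, 0.80 in place of 1.70 for Ski and 0.74 in place of 1.72 for Tle3. The Groucho corepressor genes Tle3 and Tle1 rose 3.30-fold and 3.62-fold (limma adjusted p = 0.000597 and 0.00613). Tle1 did not pass without mdx 2 (limma adjusted p = 0.0517) or without mdx 3 (limma adjusted p = 0.0507). Nor did Tle1 pass without trend and robust estimation (limma adjusted p = 0.051) or with equal Pax7 (limma adjusted p = 0.0544). Gnai2, encoding a G protein subunit that binds Eya2, rose 3.37-fold, with 4978, 6524 and 5989 normalized counts in mdx against 2229 and 1325 in wild type (limma adjusted p = 0.00117).

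Genes reported as targets of Six-family proteins, through MEF3 or related sites, moved in different directions. Of 8 tested, 3 rose, 1 fell and 4 did not pass, with a median log2 fold change of 1.22. Myog had 1806, 1605 and 1491 normalized counts in mdx against 91 and 1 in wild type (limma adjusted p = 0.00343), a call that ended without any 1 mdx library (limma adjusted p = 0.0519 to 0.0564). Without wild type 1 or wild type 2 the log2 fold change of Myog was 9.09 or 4.13, in place of 6.61. Igfbp5, encoding an insulin-like growth factor binding protein, had 13326, 15788 and 15626 in mdx against 5676 and 1464 in wild type, a 5.15-fold rise (limma adjusted p = 0.00561). The call of Igfbp5 likewise ended without any 1 mdx library (limma adjusted p = 0.0602 to 0.0705) and with no filter on low values (limma adjusted p = 0.0999). Without wild type 1 and wild type 2 its log2 fold changes were 3.34 and 1.39, in place of 2.37. Myod1, the myogenic determination factor, had 713, 878 and 937 in mdx against 327 and 199 in wild type (limma adjusted p = 0.00592). The call of Myod1 ended without mdx 3 (limma adjusted p = 0.0521), with replicate numbers as a block (0.0598) and with equal Pax7 (0.0563). Myf5, another determination factor and a marker of satellite cells, fell, with 2603, 1876 and 3671 in mdx against 8140 and 6615 in wild type (limma adjusted p = 0.00451, and 0.0525 without mdx 1). Without trend and robust estimation Myog, Igfbp5 and Myf5 did not pass (limma adjusted p = 0.0526, 0.0811 and 0.0828). Aldoa, encoding a glycolytic aldolase, had 4009, 4321 and 4363 in mdx and 4459 and 3980 in wild type. The plot of fold changes sets these genes beside the Six-family and Eya genes.

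**Figure D3:**
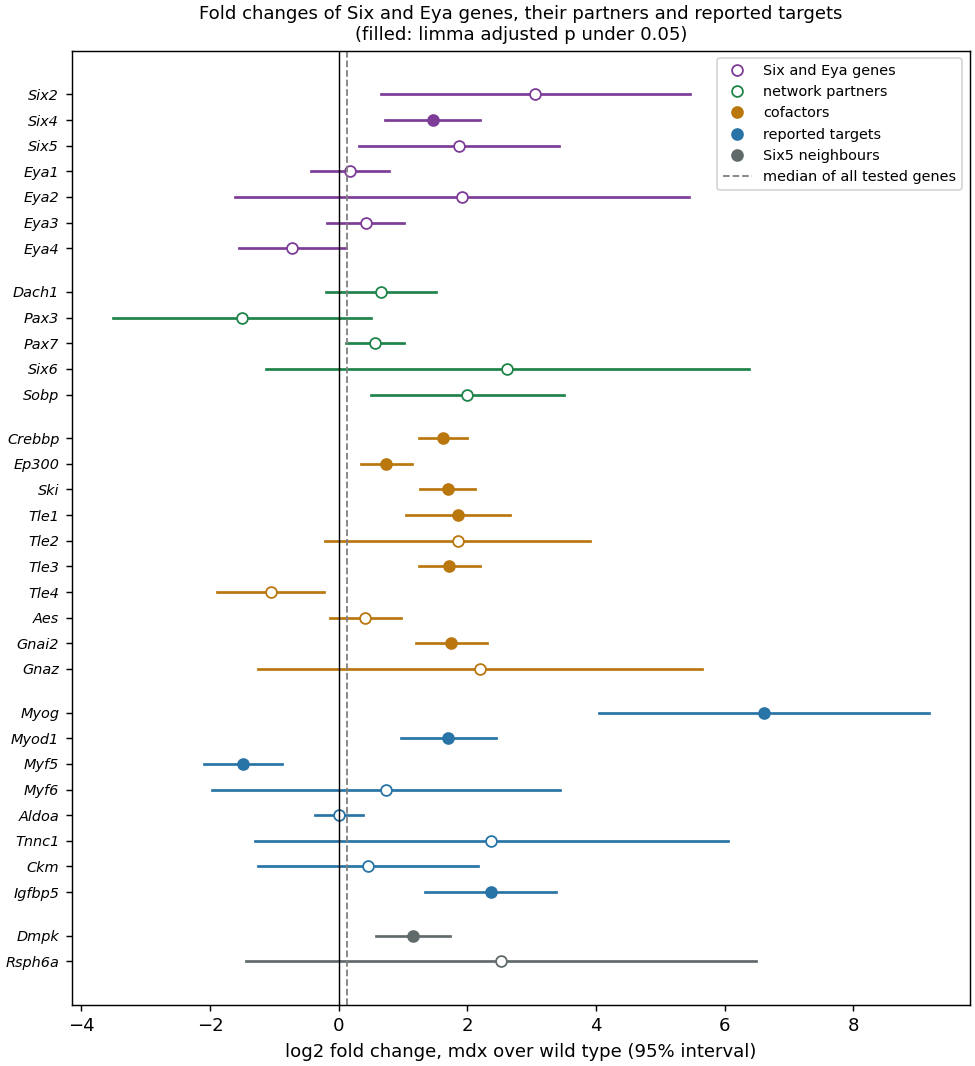
Log2 fold changes, mdx over wild type, with 95% intervals from limma, for the 7 Six-family and Eya genes and for the tested network partners, cofactors, reported targets and neighbours of Six5. Filled points passed the threshold. Six4 at 1.47 is the 1 filled point among the 7 genes, and the dashed line marks the median of all tested genes at 0.13.

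Genes whose pattern over the 5 libraries was most like each Six-family or Eya gene were found by the root mean square difference of log2 values, each gene centred on its own mean. Nearest to Six4 were Gigyf1, a regulator of translation, at 0.071 and Bhlhe41, a basic helix-loop-helix repressor, at 0.09, and 130 genes lay within 0.25 of it. Bhlhe41 had 361, 548 and 499 normalized counts in mdx and 119 and 237 in wild type. Nearest to Eya4 were Cyp51, an enzyme of cholesterol synthesis, at 0.095 and Dph7 at 0.101, with 78 genes within 0.25. Cyp51 had 705, 723 and 618 normalized counts in mdx and 1792 and 805 in wild type, a likeness to Eya4 that its selection fixes. Six5 was nearest to Socs1, an inhibitor of cytokine signalling, at 0.081 and Six2 to Prr12 at 0.18, with 3 and 4 genes within 0.25. Eya2 was nearest to Proser3 at 0.225, and Eya1 and Eya3 were nearest to Dlst, a mitochondrial enzyme gene, at 0.05 and Fermt2, encoding an integrin adaptor, at 0.029. Eya1 and Eya3 had 849 and 815 genes within 0.25, since a nearly flat pattern is common.

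The plot of Six2, Six4, Six5 and Eya4 under every setting shows how far each value moved. For Six2, Six4 and Six5 the log2 fold change was above 0 in all 16 settings, the reported one included, between 1.99 and 4.13 for Six2, 0.91 and 1.85 for Six4 and 0.91 and 2.57 for Six5. Eya4 was below 0 in all 16, between −1.37 and −0.07, the last without wild type 1 and close to no change. A constant sign is a weak check for Six2, Six4 and Six5. Their libraries did not overlap between genotypes, so many settings could not have turned it.

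**Figure D4:**
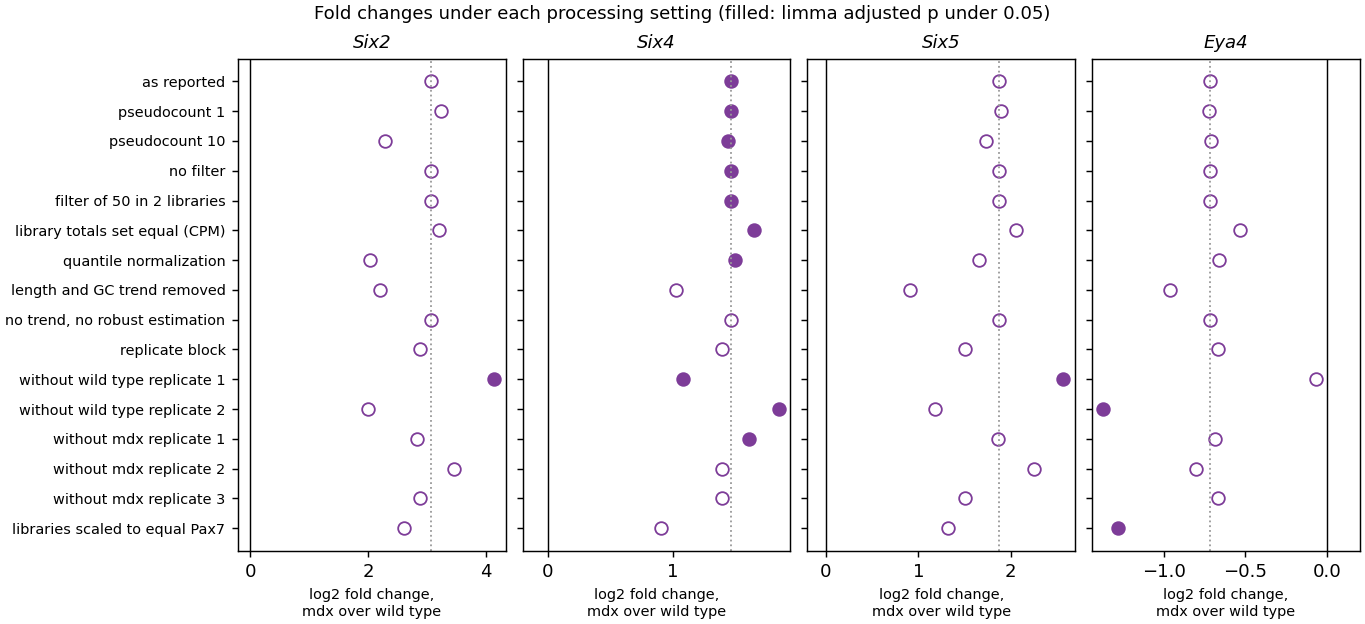
Log2 fold changes of Six2, Six4, Six5 and Eya4, mdx over wild type, as reported (top) and under each of 15 other settings. Filled points have a limma adjusted p under 0.05. Six4 stays above 0 throughout, from 0.91 to 1.85, and is filled in 10 of 16 settings.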

How the data were processed

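Per the labels' protocols, sorted cells went directly into library preparation with a low-input stranded total RNA kit. Per the submitters' processing notes, the tools were STAR 2.6.1d, featureCounts 1.6.3 (Subread) and DESeq2 1.18.1, with the build mm10. Their order, the strand setting and the handling of multimapping reads were not given in the sources used here. As to the unit, the deposited values are treated as a score, a normalized count rounded by the authors to a whole number, since 6 of the numbers from 1 to 30 never occurred in mdx 1. The worth of 1 read, from 0.861 to 1.25 normalized counts, was estimated from how often each number occurred, and raw counts were not restored.

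Values were transformed to log2(value + 2) and fitted by limma 3.58.1 (R 4.3.3), with genotype as the only term, a mean trend and robust estimation. P-values are two-sided, with Benjamini-Hochberg adjustment over all tested genes. Fold changes are on the log2(value + 2) scale, which understates the change of low genes, and are relative to the typical gene. On simulated tables of about 17796 tested genes, the fit called 21.9% of genes changed 2-fold and 72.6% of those changed 4-fold. Only 200 genes were changed in each simulated table, while 2659 and 1868 were called higher and lower in the data. Adjustment was therefore stricter in the simulation, and these shares can understate what the fit calls in the data. The changed genes were drawn only from genes above a set mean. Six2 and Eya2 lie below that mean, so these shares do not apply to them. Exon lengths came from GENCODE release M21, which held 22649 of the 22683 identifiers and the same coordinates for all 7 genes except Eya3. No annotated gene on either strand shared exon bases with the 7 genes. Promoter windows came from RefSeq (GRCm38.p6).

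The 7 genes, the gene lists and the tests were chosen with earlier results of these data known. Of the listed genes, 2 are not reported here and were left out of the counts. The 7 genes are named whatever their test, listed genes by their calls, and the 2 genes most alike by a fixed measure. Alternatives covered the pseudocount (1 and 10), the filter (none, and 50 in 2 libraries), scaling, length and GC content, the variance model, the replicate block and each library left out.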

Additional observations from a re-analysis of the deposited data

How the results depend on the processing

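Six2, Six4 and Six5 kept their direction in all 15 other settings, as did Eya4. For Six2, Six4 and Six5, whose libraries did not overlap between genotypes, many of these settings could not have turned it. The counts of all tested genes, 2659 higher and 1868 lower in mdx as reported, were 1769 higher with the length and GC trend removed, 1150 lower without trend and robust estimation, and 1523 higher and 2962 lower with libraries scaled to equal Pax7. With 1 library left out they ranged from 1450 to 3308 higher and from 1112 to 1853 lower. The number of the 7 genes called higher, 1 as reported, was 0 with the length and GC trend removed, without trend and robust estimation, with the replicate block and with equal Pax7, and 0 to 3 with 1 library left out. The number called lower was 1 with equal Pax7 and 0 to 1 with 1 library left out. The log2 fold change of Six4 was not called at 1.03 with the length and GC trend removed, at 1.47 without trend and robust estimation, at 1.39 with the replicate block and at 0.91 with equal Pax7. With 1 library left out it ranged from 1.08 to 1.85 for Six4, 1.99 to 4.13 for Six2, 1.18 to 2.57 for Six5, −0.84 to 4.67 for Eya2 and −1.37 to −0.068 for Eya4. Scaling to equal Pax7 lowers all log2 fold changes by about 0.56 by construction, which puts Eya1 at −0.38, Eya3 at −0.14 and Eya4, then called, at −1.28. Signs also turned with the length and GC trend removed, for Eya1 (−0.0016), Eya3 (−0.16), Pax7 (−0.35) and Ep300 (−0.18), and the cause was not tested. The median log2 fold change of all tested genes was 0.13 as reported, 0.31 with equal library totals, 0.28 with no filter, −0.03 with the length and GC trend removed and −0.39 with equal Pax7.

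Libraries share the numbers 1 and 2 between genotypes, and the deviations of same-numbered libraries were not correlated (−0.014 and −0.017). This shows no pairing by number but cannot exclude one, since the deviations of 2 wild-type libraries mirror each other. The replicate block gave 1163 genes higher and 860 lower. Where 1 wild-type library is left out, the other is assumed to vary as the mdx libraries do, although the wild-type libraries differ widely for Eya2 and Eya4. Counting error is wide for Six2 in wild type 2, at 3 reads, although the wild-type libraries are the deepest. Eya2 had 0 reads in wild type 1 and about 103 in wild type 2.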
